A study of Mus musculus with 2 samples.

Results

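The respiratory chain and ATP synthase of mitochondria are built from subunits encoded in the cell nucleus together with a small set encoded by mitochondrial DNA. Complex I oxidises NADH, complex II oxidises succinate, complex III passes the electrons to cytochrome c, complex IV reduces oxygen, and complex V uses the resulting proton gradient to make ATP. In the intestinal crypt, stem cells at the base give rise to dividing progenitors and then to absorptive enterocytes and secretory cells, which include mucus-producing goblet cells and hormone-producing enteroendocrine cells. Here the nuclear-encoded oxidative phosphorylation (OXPHOS) genes were taken as all genes whose symbol begins with Nduf, Uqcr, Cox4i, Cox5, Cox6, Cox7, Cox8, Atp5 or Sdh, without pseudogene symbols. The rule found 97 of 31055 genes, and 94 of them had at least 1 UMI (unique molecular identifier, a counted transcript molecule) in the cells kept by the authors.

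The cells were small-intestinal crypt epithelial cells of a ChgaCreER-tdTomato::Rosa26LSL-eYFP mouse given 1 mg tamoxifen on each of 5 days. The CreER recombinase and the red reporter are driven from Chga, a gene of hormone-producing cells, so eYFP marks cells in which that driver was active and their progeny. eYFP+ and bulk cells were sorted, tagged with hashtag antibodies and pooled, and the sources used here do not say which tag marks which sort. All values below come from 1 gene expression library of 1 mouse with no untreated group, so there are no replicates, no test between conditions was possible, and the intervals are 95% intervals for counting error only. Cells are not replicates.

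The authors kept 2335 cells with 1002 to 129719 UMIs each (median 19078) and 51238250 UMIs in all. OXPHOS members made up 4.06% of these UMIs, and the 13 mitochondrially encoded protein genes, whose symbols begin with mt-, made up 7.19%. Cells were placed in classes by transcripts that are not OXPHOS genes: at least 3 Lgr5 UMIs (stem cell marker), at least 10 Mki67 plus Top2a UMIs (dividing cells), at least 3 Neurog3 UMIs (endocrine progenitors), at least 5 Tph1 UMIs (serotonin-producing enterochromaffin cells), at least 0.5% of UMIs from Agr2, Fcgbp and Muc2 (goblet cells), at least 2 Alpi UMIs (enterocytes) or at least 2 Ptprc UMIs (lymphocytes). A cell could meet several rules, as 313 cells did, and cells that met both rules of a comparison were left out of it. The stem and lymphocyte markers, taken without the rule gene, followed the class names. The 7 stem markers other than Lgr5 summed to 10538 counts per 1000000 UMIs (CPM) in Lgr5 cells. Of the other classes cycling cells were highest at 5201 CPM and enterocytes lowest at 364. The 7 lymphocyte markers other than Ptprc summed to 8684 CPM in Ptprc cells against at most 8.45 in the other 6 classes. Neurog3 cells held 2340 CPM of endocrine progenitor markers (Neurog3 included), beside 21454 CPM of enterochromaffin and 8808 CPM of goblet markers. The Lgr5 class also held 21736 CPM of Paneth cell markers and the goblet class 11213 CPM, against 366 CPM in enterocytes. Without the 18 Lgr5 cells in which those markers reached 1% of UMIs, a step added after the data were seen, the OXPHOS share of Lgr5 cells was 3.54% in place of 3.42%.

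Among the classes, enterocytes gave OXPHOS genes the highest share of their transcripts and lymphocytes the lowest. In the 134 enterocytes the members held 6.32% of UMIs (interval 6.30 to 6.35), with single cells from 2.94% to 8.65% and a median of 6.53%. In the 637 cycling cells they held 4.21% (4.21 to 4.22), with cells from 1.17% to 6.92% and a median of 4.07%. In the 497 Lgr5 cells they held 3.42% (3.41 to 3.43), with cells from 0.311% to 5.54% and a median of 3.41%. Dividing cells thus lay between stem cells and enterocytes, and the cell ranges of the 3 classes overlapped.

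Summed over all their cells, the secretory classes lay just under the Lgr5 class. OXPHOS genes held 3.29% of UMIs in 47 Neurog3 cells (median cell 2.73%), 3.20% in 347 Tph1 cells (median cell 2.79%) and 3.22% in 129 goblet cells (median cell 2.84%). With doubled class thresholds the Neurog3 share was level with that of Lgr5 cells (log2 difference 0.00757). In the 95 lymphocytes they held 2.22% (2.17 to 2.26), with cells from 1.02% to 6.39% and a median of 1.71%. Lymphocytes were shallow, with a median of 2907 UMIs against 24495 in Lgr5 cells, and in the 90 lymphocytes under 10000 UMIs the share was 1.82%. Cells with the B cell transcript Cd79a gave 1.78% (51 cells) and cells with the T cell transcripts Cd3e or Cd3g gave 1.96% (36 cells). The 792 cells in no class held 4.15%.

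**Figure D1:**
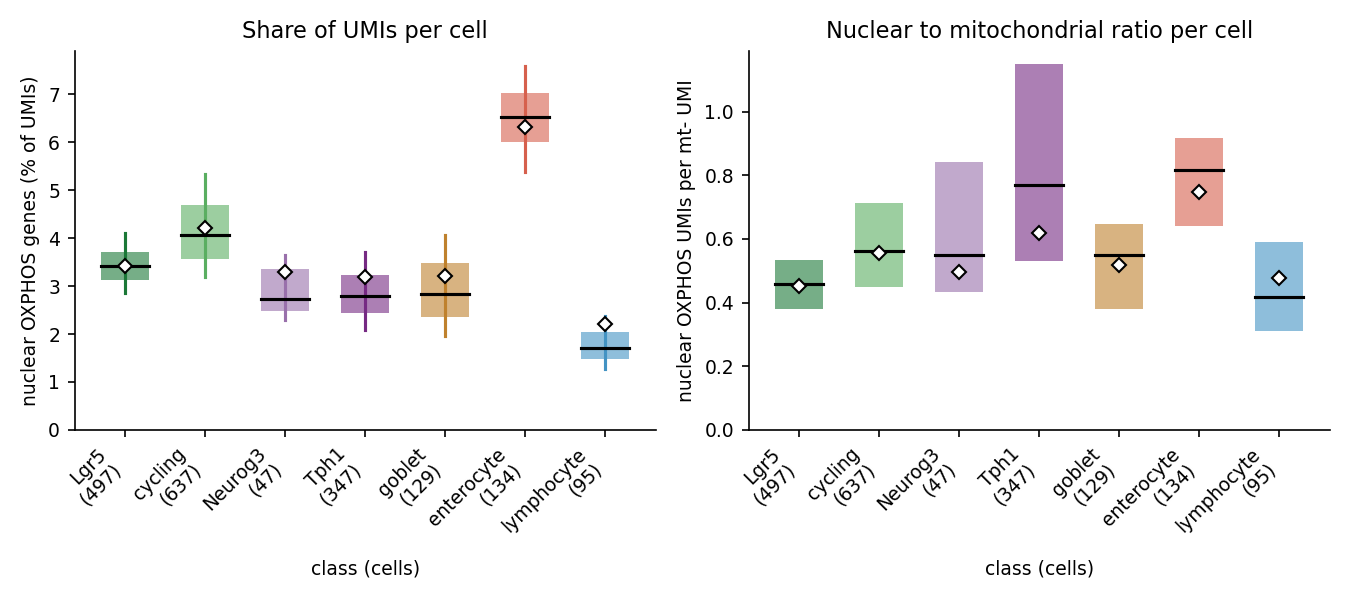
Left, percentage of each cell's UMIs from the 97 OXPHOS genes by class; right, OXPHOS UMIs per mt- UMI. Boxes span the quartiles over cells, black bars mark the median cell, vertical lines (left) run from the 10th to the 90th percentile, white diamonds show the value over the summed UMIs, and cell numbers stand in brackets. Enterocytes sit highest on the left at 6.32%, while the Tph1 class has a median cell ratio of 0.770 on the right, close to the 0.816 of enterocytes.

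Depth differed between classes, and the share moved with depth inside some of them. At 20000 to 40000 UMIs per cell, the share was 3.48% in Lgr5 cells, 4.22% in cycling cells, 3.20% in Neurog3 cells, 3.18% in Tph1 cells, 2.85% in goblet cells and 6.49% in enterocytes, so the order of the higher classes was the same as over all depths. Within the Tph1 class the share went from 2.57% below 10000 UMIs to 3.88% above 40000 UMIs, and within the goblet class from 2.44% to 3.94%. Within the Lgr5 class the 4 depth bins stayed between 3.24% and 3.48%. Above 40000 UMIs the order of these classes was therefore the reverse, with Tph1 cells (28) at 3.88% and goblet cells (20) at 3.94% over Lgr5 cells (96) at 3.36%. Among enterocytes the share went the other way, from 6.76% at 10000 to 20000 UMIs to 6.06% above 40000.

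The share was higher in cycling than in Lgr5 cells and, among enterocytes, rose with the count of Alpi. Cells that met only the Lgr5 rule gave 3.20%, cells that met both the Lgr5 and cycling rules gave 3.64%, and cells that met only the cycling rule gave 4.48%. Enterocytes with 2 to 3 Alpi UMIs gave 5.87%, those with 4 to 9 gave 6.49% and those with 10 or more gave 6.64%. The 15 cells that met both the enterocyte and cycling rules gave 5.36%, below each of these Alpi groups.

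The proportions between the complexes moved little while the total nearly doubled. Complex I genes supplied 25.9% of all OXPHOS UMIs in Lgr5 cells, 26.3% in cycling cells, 25.8% in enterocytes and 27.2% in lymphocytes. Complex V supplied 30.5% in Lgr5 cells, 30.2% in enterocytes and 29.5% in Tph1 cells, and complex IV 29.2%, 29.3% and 29.1% in the same classes. Complex II ranged from 2.69% in Tph1 cells to 3.09% in enterocytes, and complex III from 10.1% in lymphocytes to 11.7% in enterocytes.

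Single genes were compared on summed UMIs per class. A gene was called higher or lower when its CPM differed by at least 1.5-fold on the log2(CPM + 10) scale and the counting intervals of its 2 levels did not overlap; with 1 library this is a rule of size, not a test. Genes of at least 50 CPM over all kept cells entered, which left 2959 genes and 79 of the 97 members. The 18 members under that level were 9 assembly factors, the tissue-restricted isoforms Cox4i2, Cox6a2, Cox6b2, Cox7a1, Cox7b2, Cox8b and Cox8c, the paralog Ndufa4l2 and a second, empty entry named Atp5o.

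Enterocytes had higher levels of nearly every OXPHOS subunit than Lgr5 cells. Of the 79 members, 68 were higher and 0 lower, where 20.8% of all genes were higher and 21.8% lower. The median member differed by 0.86 on the log2 scale, against -0.02 for all genes, and the summed share by 0.91 (6.36% and 3.40% after cells of both classes were left out). By complex, 32 of 39 members of complex I, 3 of 5 of complex II, all 8 of complex III, 11 of 12 of complex IV and 14 of 15 of complex V were higher. At a 2-fold limit 28 members were higher, where 9.8% of all genes were.

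In complex I, the membrane-arm accessory subunits Ndufb6 and Ndufb10 differed most. Ndufb6 was at 398 CPM in enterocytes and 140 in Lgr5 cells (log2 difference 1.44), and Ndufb10 at 686 and 249 (1.43). The accessory subunit Ndufb9, the complex I member with most UMIs, was at 1167 and 516 CPM (1.16), Ndufab1, the mitochondrial acyl carrier protein, at 740 and 366 (1.00), and Ndufb5 at 738 and 427 (0.77). Ndufa7 lay below the call at 402 and 384 CPM (0.06). The higher calls of complex I therefore covered accessory subunits (26 of 29) and the catalytic core (6 of 7), while 0 of the 4 tested assembly factors were called: Ndufaf8 differed by 0.50, Ndufaf4 by 0.48, Ndufaf2 by -0.24 and, in complex II, Sdhaf1 by -0.10.

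In complex II, the enzyme shared with the citric acid cycle, the iron-sulfur subunit Sdhb showed the highest log2 difference of all members, 684 against 242 CPM (1.46). The membrane anchor Sdhd was at 461 and 213 CPM (1.08), and the flavoprotein Sdha at 327 and 236 (0.45), under the call. In complex III the Rieske iron-sulfur protein Uqcrfs1 was at 643 and 240 CPM (1.38). The small subunits Uqcrq at 1365 and 649 (1.06), Uqcr11 at 987 and 456 (1.10) and Uqcrh at 1509 and 955 (0.66) were also higher. Catalytic and small subunits of both complexes thus shared the direction, with unequal size.

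In complex IV, cytochrome c oxidase, Cox5a was at 1821 CPM in enterocytes and 675 in Lgr5 cells (1.42). Cox4i1, its most counted subunit here, was at 2914 and 1777 CPM (0.71), Cox8a at 2096 and 1187 (0.82) and Cox7c at 1505 and 940 (0.67). In complex V the catalytic beta subunit Atp5b was at 2016 and 1166 CPM (0.78) and the alpha subunit Atp5a1 at 1511 and 857 (0.81). In each of these complexes 1 member stayed level: Cox7a2l, which takes part in supercomplex assembly, at 659 and 664 CPM (-0.01), and Atp5g2 at 873 and 884 (-0.02).

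**Figure D2:**
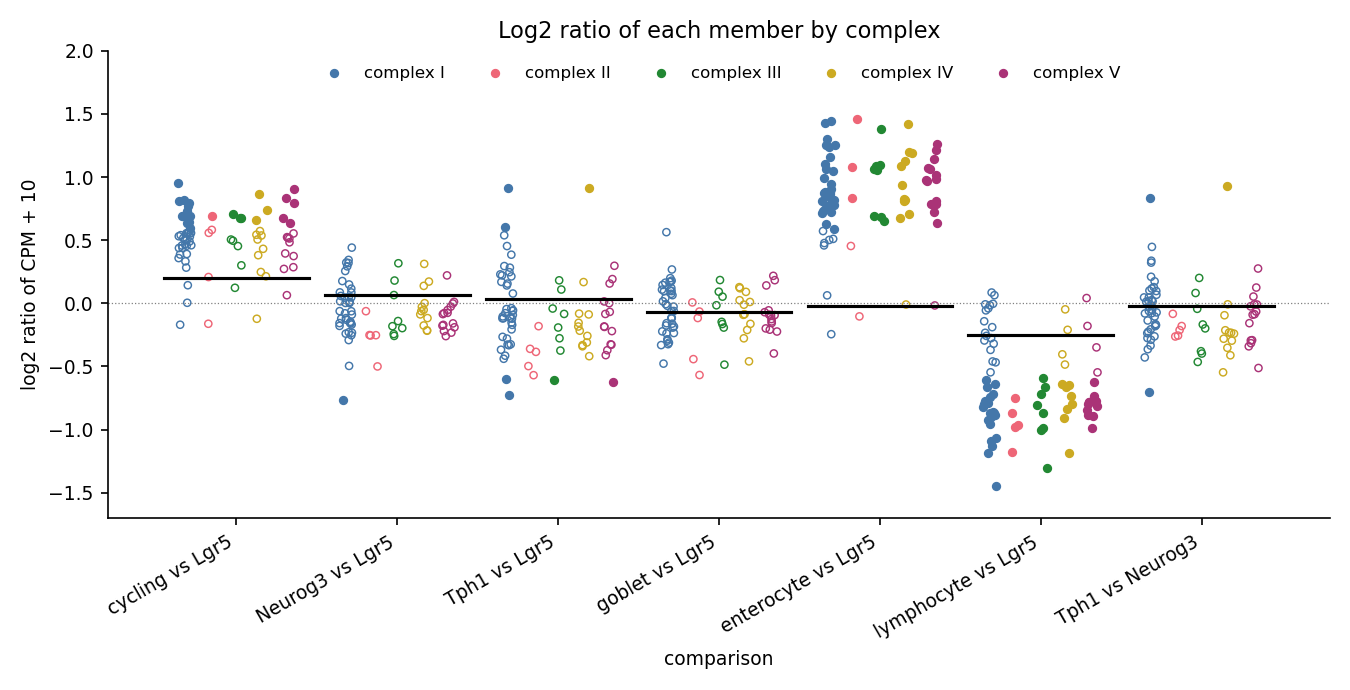
Log2 ratio of CPM + 10 of each of the 79 tested members in 7 class comparisons, coloured by complex; filled points were called higher or lower, open points were not, and black lines mark the median of all 2959 tested genes. In enterocytes 68 members lie above the call in all 5 complexes, and in lymphocytes 53 lie below it. In Neurog3, Tph1 and goblet cells against Lgr5 cells most points are open. There 18 (Neurog3), 22 (Tph1) and 38 (goblet) of the 79 members lie above the line.

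Cycling cells showed a smaller difference in the same direction. Compared with Lgr5 cells that did not meet the cycling rule, 25 of 79 members were higher and 0 lower, where 13.5% of all genes were higher and 3.95% lower. The median member differed by 0.52, against 0.20 for all genes, and the share by 0.48. Ndufb6 was at 246 CPM in cycling and 122 in Lgr5 cells (0.96), the c subunit gene Atp5g1 at 1348 and 715 (0.91), Cox5a at 1100 and 600 (0.86), and Atp5k, a membrane subunit of ATP synthase, at 446 and 246 (0.83). At the other end Ndufa7 was at 360 and 406 CPM (-0.17), Sdhaf1 at 70.2 and 79.7 (-0.16), Cox7a2l at 619 and 675 (-0.12) and Ndufa6 at 299 and 298 (0.00). Without cells in which Paneth markers reached 1% of UMIs, 20 members were higher, where 10.4% of all genes were, and the share differed by 0.40. At a 2-fold limit 0 members were higher, where 4.29% of all genes were.

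Few members were called in kept goblet and Neurog3 cells against Lgr5 cells. In goblet cells 0 of 79 members were called in either direction, where 12.1% of all genes were higher and 9.19% lower, and the median member differed by -0.09 (all genes -0.07). The flavoprotein-module subunit Ndufv3 was the highest, at 222 and 147 CPM (0.56), and Sdhaf1 the lowest, at 46.5 and 73.7 (-0.57); neither was called. In Neurog3 cells 0 members were higher and 1 was lower, where 15.2% of all genes were higher and 9.6% lower. That member was the complex I assembly factor Ndufaf2, at 26.4 CPM in Neurog3 cells and 52.1 in Lgr5 cells (-0.77). The median member differed by -0.08 in Neurog3 cells (all genes 0.06). With cells that met exactly 1 rule, 8 members were lower in Neurog3 cells, where 11.4% of all genes were, and 4 in goblet cells, where 14.6% were. In barcodes that the authors left out, 40 of 79 members were lower in Neurog3 barcodes, where 22.8% of all genes were. In left-out goblet barcodes 10 were lower, where 17.4% of all genes were.

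Tph1 cells had members called in both directions. Against Lgr5 cells, 3 of 79 members were higher and 4 lower, where 20.3% of all genes were higher and 16.6% lower, and the share differed by -0.11. That difference was -0.0588 in cells of at least 10000 UMIs, -0.30 without the top doublet scores, -0.32 with the median cell and -0.42 over UMIs outside mt-, Rpl and Rps genes. Cox7a2l was at 1225 CPM in Tph1 cells and 645 in Lgr5 cells (0.91), Ndufv3 at 283 and 146 (0.91), and the complex I accessory subunit Ndufs5 at 238 and 153 (0.60). The lower members included Ndufaf2 at 27.1 and 51.4 CPM (-0.73), Atp5g2 at 578 and 895 (-0.62) and the complex III core protein Uqcrc2 at 209 and 325 (-0.61).

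The count of lower members in Tph1 cells depended on the denominator and on the cells. Enterochromaffin markers took 63141 CPM of Tph1 cells, and ribosomal protein genes took 16.1% of their UMIs against 27.3% in Lgr5 cells. With mt-, Rpl and Rps genes outside the denominator, 25 of 81 tested members were lower and 2 higher, where 25.7% and 13.1% of 3999 genes were; that step moved the median of all genes outside those families by -0.29, and the median member lay at -0.20 from it, against -0.19 with the full denominator. When cells were ranked by doublet score and the top 6% dropped, which took 79 of the 347 Tph1 cells, 25 members were lower and 4 higher, where 26.4% and 25% of all genes were. Cox7a2l and Ndufv3 were the 2 members called higher in Tph1 cells against Neurog3 cells as well, with 1 lower, where 12% of all genes were higher and 9.53% lower. The share differed by -0.12 there. This comparison also depended on the cells. With cells that met exactly 1 rule the share difference turned positive and more members were called in both directions. Without the top doublet scores more members were lower. The share of all genes was not taken for these 2 alternatives.

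Cox7a2l and Ndufv3 stood at different levels along the endocrine classes. Cox7a2l was at 614 CPM in cells that met only the Neurog3 rule, 1103 in cells that met both rules, 1087 with 5 to 9 Tph1 UMIs, 1132 with 10 to 29 and 1219 with 30 or more. Ndufv3 was at 145, 224, 241, 256 and 276 CPM in the same order. Atp5g2 went from 866 to 645, 635, 618 and 591 CPM. For each of these genes the counting interval of Neurog3-only cells lay apart from those of all later groups. Among the later groups the intervals of Ndufv3 and of Atp5g2 overlapped. For Cox7a2l the interval at 30 or more Tph1 UMIs (1181 to 1258) lay above those at 5 to 9 and 10 to 29. The 23 cells that met both rules are also counted in the groups by Tph1 UMIs. Over all 7 classes Cox7a2l was highest in Tph1 cells at 1171 CPM (1145 to 1198), followed by Neurog3 cells at 786 (735 to 840). Lgr5 cells at 664, enterocytes at 660 and lymphocytes at 655 had overlapping intervals, cycling cells were at 629, and goblet cells lowest at 482 (458 to 507).

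Lymphocytes had lower levels of most members than Lgr5 cells. Of 79 members 53 were lower and 0 higher, where 31.4% of all genes were lower and 13.8% higher, and the median member differed by -0.74 (all genes -0.25). All 5 tested members of complex II and all 8 of complex III were lower, against 21 of 39 in complex I, 8 of 12 in complex IV and 11 of 15 in complex V. At a 2-fold limit 9 were lower, where 18.9% of all genes were. The complex III core protein Uqcrc1 was at 130 CPM in lymphocytes and 335 in Lgr5 cells (-1.30), Ndufa4, a complex IV subunit despite its symbol, at 327 and 759 (-1.19), and the assembly factor Ndufaf4 at 16.2 and 61.7 (-1.45). Ndufv3 at 157 and 147 (0.09), Ndufb7 at 241 and 230 (0.06), the epsilon subunit Atp5e at 698 and 678 (0.04) and Ndufa13 at 322 and 323 (0.00) were level. Epithelial markers summed to 2337 CPM in lymphocytes and 5900 in Lgr5 cells, and enterochromaffin markers to 5641 and 2296; the part of this RNA in the OXPHOS levels of lymphocytes was not tested.

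The 3 genes for the c subunit of ATP synthase, Atp5g1, Atp5g2 and Atp5g3, encode the same mature protein and did not move together. Atp5g1 was at 858 CPM in Lgr5 cells, 1241 in cycling cells, 754 in Neurog3 cells, 857 in Tph1 cells, 947 in goblet cells, 1880 in enterocytes and 439 in lymphocytes. Atp5g3 was at 538, 705, 531, 542, 513, 1124 and 361 CPM in that order, and Atp5g2 at 884, 898, 788, 606, 668, 875 and 537. Atp5g2 therefore supplied 38.8% of the UMIs of the 3 genes in Lgr5 cells (interval 38.2 to 39.3), 31.6% in cycling cells, 30.2% in Tph1 cells and 22.6% in enterocytes (21.9 to 23.2). The interval in Neurog3 cells, 36.03% to 40.03%, overlapped that of Lgr5 cells.

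Cox7a1, the isoform of Cox7a known from heart and skeletal muscle, was counted mainly in enterocytes. It had 788 UMIs in enterocytes (176 CPM, interval 164 to 188), where 124 of 134 cells held at least 1, and 61 UMIs in Lgr5 cells (4.22 CPM, 3.23 to 5.42). Cycling cells were at 12.96 CPM, Neurog3 cells at 14.3, Tph1 cells at 15.3, goblet cells at 15.2 and lymphocytes at 7.74, and the intervals of these 5 classes overlapped. Without the 5 cells of most Cox7a1 UMIs in each class, the level was 158 CPM in enterocytes, 3.40 in Lgr5 cells, 11.6 in cycling cells, 12.1 in Tph1 cells and 10.2 in goblet cells. It was 3.39 in Neurog3 cells, where 13 of the 16 UMIs lay in those 5 cells, and 0 in lymphocytes, whose 3 UMIs lay in 3 cells. Cox7a1 supplied 13.6% of the UMIs of Cox7a1 and its broadly expressed paralog Cox7a2 in enterocytes and 0.860% in Lgr5 cells. The level went from 103 CPM with 2 to 3 Alpi UMIs to 191 with 4 to 9 and 244 with 10 or more, and was 170 CPM in enterocytes of tags 1 and 2 and 115 CPM in those of tags 3 and 4.

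**Figure D3:**
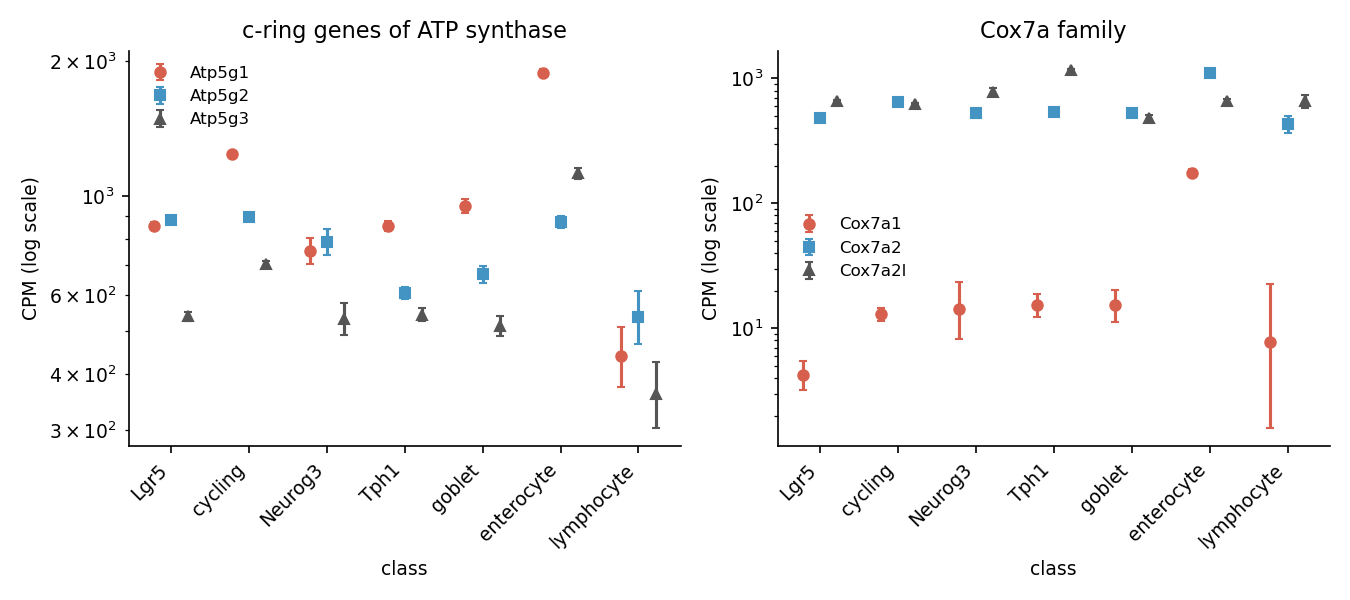
CPM on a log axis of the 3 c-ring genes (left) and of Cox7a1, Cox7a2 and Cox7a2l (right) by class, with 95% counting intervals. Atp5g1 and Atp5g3 are highest in enterocytes while Atp5g2 is at 875 CPM there and 884 in Lgr5 cells; Cox7a1 reaches 176 CPM in enterocytes and is at most 15.3 CPM elsewhere; Cox7a2l peaks in Tph1 cells.

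The other restricted isoforms were scarce. Cox6b2, known from testis, was at 20.7 CPM in Lgr5 cells (18.4 to 23.2), 15.4 in cycling cells and 6.02 in enterocytes (3.97 to 8.76, and 3.76 CPM without the 5 cells of most Cox6b2 UMIs), the reverse order of its paralog Cox6b1 at 744, 947 and 1420 CPM. In lymphocytes Cox6b2 had 0 UMIs, with an upper bound of 9.51 CPM. Cox6a2, the muscle isoform of Cox6a1, had 5 UMIs in lymphocytes, all in 1 cell, and 3 or fewer in each other class. Cox4i2 had 3 UMIs in cycling cells, 1 in goblet cells and 0 in the other 5 classes, Ndufa4l2 had 1, in an enterocyte, and Cox8b and Cox8c were at 0 in all kept cells.

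RefSeq promoter windows (build GRCm38.p6, 250 bases before to 50 after the annotated start) were found for 78 members, and the sequences of genes with contrasting patterns are shown. Exact 8-base words for 4 factors known to act at such promoters were searched on both strands. The NRF1 word GCGCATGC was in 12 of the 78 member windows (15.4%) and 3.05% of 27025 genes with a window, the YY1 word AAGATGGC in 10 (12.8% and 3.19%), the ERR word CAAGGTCA in 4 (5.13% and 1.76%) and the ETS word CCGGAAGT in 5 (6.41% and 4.31%). No word is contained in another, and the NRF1 word overlaps its own reverse complement, so that 10 capitals mark a match on both strands. A match is a run of letters and says nothing of binding. The 27025 genes were taken without regard to their expression in these cells. A background of expressed genes alone was not counted. The first 2 windows below are those of Sdhb (chr4:140961021-140961320, plus strand), higher in enterocytes, and Atp5g2 (chr15:102670998-102671297, minus strand), level in enterocytes; both hold the NRF1 word, in capitals. The windows of Atp5g1 (chr11:96075582-96075881, minus strand), Cox7a1 (chr7:30183921-30184220, plus strand) and Cox7a2l (chr17:83514284-83514583, minus strand) hold none of the 4 words.
Sdhb: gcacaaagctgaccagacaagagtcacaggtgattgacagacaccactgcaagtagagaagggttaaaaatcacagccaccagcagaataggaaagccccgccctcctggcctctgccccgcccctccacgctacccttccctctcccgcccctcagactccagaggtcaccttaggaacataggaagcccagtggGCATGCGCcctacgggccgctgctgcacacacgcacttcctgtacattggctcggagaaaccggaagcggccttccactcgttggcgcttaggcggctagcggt
Atp5g2: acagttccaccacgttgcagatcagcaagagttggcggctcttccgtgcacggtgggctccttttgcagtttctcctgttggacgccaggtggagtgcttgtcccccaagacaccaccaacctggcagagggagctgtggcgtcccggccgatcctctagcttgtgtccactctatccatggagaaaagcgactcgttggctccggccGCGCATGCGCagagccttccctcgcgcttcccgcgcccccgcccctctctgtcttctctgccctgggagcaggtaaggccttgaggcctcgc
Atp5g1: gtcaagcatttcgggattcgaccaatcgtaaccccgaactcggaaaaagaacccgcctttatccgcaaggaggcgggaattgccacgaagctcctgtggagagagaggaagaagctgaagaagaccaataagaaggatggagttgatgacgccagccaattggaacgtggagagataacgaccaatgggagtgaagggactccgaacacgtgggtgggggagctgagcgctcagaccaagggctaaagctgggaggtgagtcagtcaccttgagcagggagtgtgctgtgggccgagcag
Cox7a1: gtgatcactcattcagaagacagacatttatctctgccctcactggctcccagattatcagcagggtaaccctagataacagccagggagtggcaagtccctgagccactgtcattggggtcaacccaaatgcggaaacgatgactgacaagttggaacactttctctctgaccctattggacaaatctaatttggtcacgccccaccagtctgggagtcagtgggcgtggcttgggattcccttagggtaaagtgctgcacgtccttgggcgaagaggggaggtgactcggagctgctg
Cox7a2l: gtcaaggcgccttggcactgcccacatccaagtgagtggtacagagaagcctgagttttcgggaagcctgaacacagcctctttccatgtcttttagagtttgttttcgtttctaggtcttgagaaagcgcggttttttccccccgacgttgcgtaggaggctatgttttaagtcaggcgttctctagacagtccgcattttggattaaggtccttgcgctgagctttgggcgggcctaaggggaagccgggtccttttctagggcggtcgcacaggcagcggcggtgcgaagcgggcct

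In enterocytes the genes of mitochondrial DNA differed from Lgr5 cells in the same direction as the nuclear members, by less. Of the 13 mt- genes 12 had a log2 difference above 0, with a median of 0.29 and a maximum of 0.50, and mt-Co1 was level. Of these genes 0 were called, where 20.8% of all genes were higher and 21.8% lower. The complex IV subunit mt-Co3, the most counted, was at 16586 and 15518 CPM (0.10), and mt- genes together took 8.43% and 7.56% of UMIs. The ratio of OXPHOS UMIs to mt- UMIs was 0.749 in enterocytes and 0.451 in Lgr5 cells. After cells of both classes were left out the ratios were 0.755 and 0.450, 0.75 apart on the log2 scale. In cycling cells the ratio was 0.555 and 0 of 13 mt- genes were called, where 13.5% of all genes were higher and 3.95% lower. In Tph1 cells the ratio was 0.620, with mt- genes at 5.16% of UMIs against 7.57% in Lgr5 cells. There 6 of 13 mt- genes were lower, where 16.6% of all genes were. Neurog3 cells were at 0.496, goblet cells at 0.518 and lymphocytes at 0.478. The direction against Lgr5 cells turned to -0.18 in Neurog3 cells that met exactly 1 rule, and to -0.13 in lymphocytes with the median cell in place of the sum. A high ratio thus went with more nuclear transcripts in enterocytes and with fewer mt- transcripts in Tph1 cells. No kept cell exceeded 12.5% mt- UMIs, so these ratios describe cells under that limit. Over all deposited barcodes of at least 1000 UMIs the ratio of enterocytes to Lgr5 cells differed by 0.05 and that of cycling cells by 0.13, and Tph1 (-0.13) and goblet (-0.08) barcodes lay below Lgr5 barcodes.

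Other mitochondrial and energy genes gave a mixed picture in enterocytes. Of 16 citric acid cycle and pyruvate dehydrogenase genes, 12 were higher and 0 lower in enterocytes, with malate dehydrogenase Mdh2 at 1557 and 310 CPM (2.29) and Pdha1 at 236 and 249 (-0.07). Of 10 tested glycolysis genes 9 were higher and 1 lower, with Ldha at 1589 and 336 CPM (2.21) and Gapdh at 1389 and 414 (1.72). Of 6 tested chain and ATP synthase genes outside the symbol rule 5 were higher, among them the electron carrier Cycs at 570 and 176 CPM (1.64) and cytochrome c1, Cyc1, at 922 and 339 (1.42). Against the 20.8% of all genes called higher, 9 of 65 mitochondrial ribosome genes (median 0.26) and 2 of 14 import and chaperone genes were higher, shares under that background, with 0 lower in either list. Of 85 cytosolic ribosomal protein genes 33 were lower and 0 higher, where 21.8% of all genes were lower. Among biogenesis regulators, the nuclear receptor Esrra was at 131 and 46.4 CPM (1.32) and the mitochondrial transcription factor Tfam at 65.5 and 124 (-0.83).

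In cycling cells 18 of 65 mitochondrial ribosome genes were higher and 0 lower (median 0.49), beside 5 of 10 glycolysis genes and 4 of 16 citric acid cycle genes, where 13.5% of all genes were higher. In Tph1 cells 76 of 85 cytosolic ribosomal protein genes were lower, 4 of 14 import and chaperone genes were lower, where 16.6% of all genes were, and cytochrome c, Cycs, was higher at 461 and 171 CPM (1.38). In lymphocytes 27 of 65 mitochondrial ribosome genes were lower with 0 higher, and 2 of 10 glycolysis genes were higher and 1 lower, where 31.4% of all genes were lower and 13.8% higher.

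**Figure D4:**
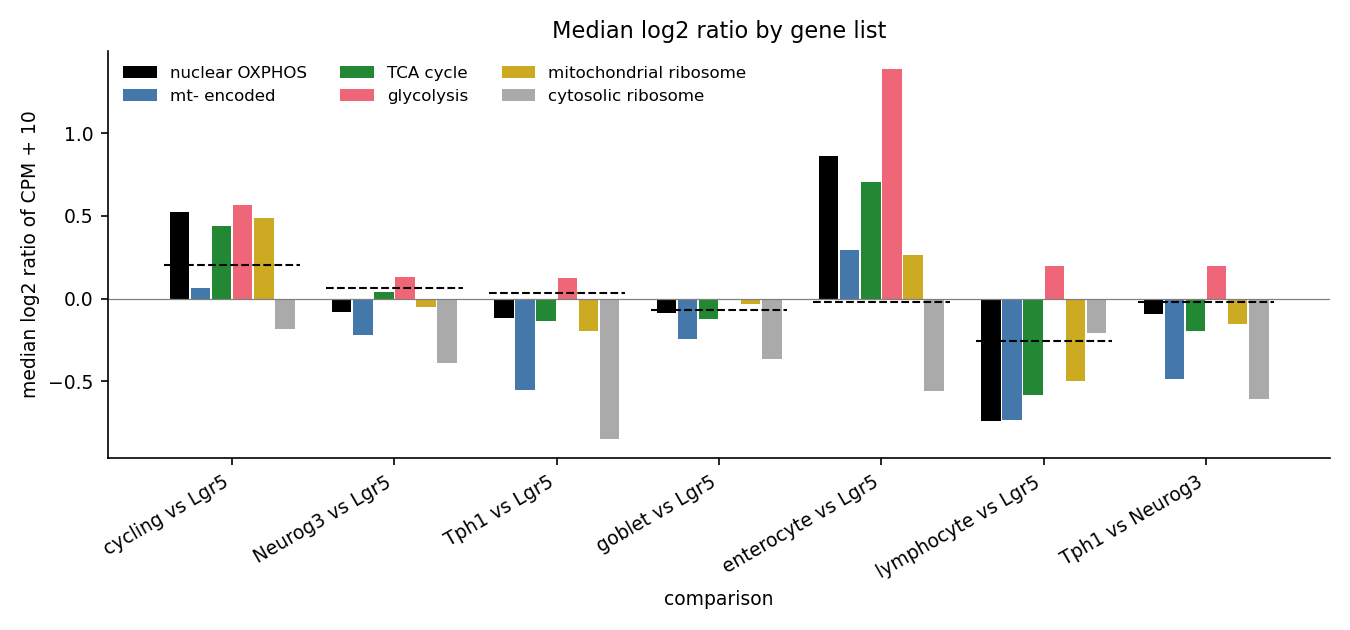
Median log2 ratio of CPM + 10 over the tested genes of 6 lists in each comparison, with the median of all 2959 tested genes as a dashed line. In enterocytes the bars for nuclear OXPHOS genes (0.86), the citric acid (TCA) cycle (0.71) and glycolysis (1.39) stand above the line while the mitochondrial ribosome is at 0.26; in Tph1 cells the mt- encoded list (-0.55) and the cytosolic ribosome (-0.85) stand lowest.

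The hashtags were taken as 2 pairs by number, tags 1 and 2 and tags 3 and 4. This pairing was a choice made here, as the sources used do not say which tag marks which sort. The 2 pairs gave near-equal OXPHOS shares in Lgr5 cells, cycling cells and enterocytes. Cells with at least 3 times the counts of one pair were compared where each side had 20 cells. In Lgr5 cells the share was 3.48% for tags 1 and 2 (157 cells) and 3.34% for tags 3 and 4 (120 cells), in cycling cells 4.26% (237) and 4.11% (122), and in enterocytes 6.20% (29) and 6.05% (28). In each of the 3 classes 0 of 79 members were called in either direction, where 1.49% of all genes were higher and 0.676% lower in tags 1 and 2 for Lgr5 cells, 1.35% and 0.879% for cycling cells, and 1.72% and 2.74% for enterocytes. In Lgr5 cells the share differed by 0.19 on the log2 scale when the counts of one pair had to be 10 times those of the other (143 and 22 cells). The other classes had too few cells on one side: Tph1 cells lay mostly on tags 1 and 2 (284 against 11), as did Neurog3 cells (27 against 2) and goblet cells (45 against 12), and lymphocytes on tags 3 and 4 (82 against 10). With every cell given to the pair with more counts, the share was lower on tags 1 and 2, with a log2 difference of -0.25 in Tph1 cells (321 and 26 cells) and -0.17 in goblet cells (82 and 44). The comparisons of these 4 classes with Lgr5 cells are therefore also comparisons between differently tagged cells.

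The barcodes that the authors left out gave a second set of cells from the same library. Among left-out barcodes of at least 1000 UMIs, 235 met the enterocyte rule and 144 the Lgr5 rule, and mt- genes took 22.9% and 18.1% of their UMIs, so levels were taken over UMIs outside mt- genes. In left-out enterocytes against left-out Lgr5 barcodes, 47 of 79 members were higher and 1 lower, where 19.2% of all genes were higher and 27.5% lower, with a median member of 0.61 (all genes -0.13). For cycling barcodes 0 members were higher and 2 lower, where 9.4% of all genes were higher and 3.8% lower, and the median member differed by 0.17 (all genes 0.12). Their OXPHOS share of the UMIs outside mt- genes was still above that of Lgr5 barcodes, at 4.22% and 3.89%, and at 4.76% and 3.93% in barcodes with no more mt- UMIs than the highest kept cell. Neurog3 barcodes (25) had 40 members lower and 1 higher, where 22.8% of all genes were lower and 17.2% higher, with a median member of -0.61 (all genes -0.06), unlike kept Neurog3 cells. Goblet barcodes had 10 lower and 0 higher, where 17.4% of all genes were lower and 11.3% higher (median member -0.32, all genes -0.16). Tph1 barcodes had 2 higher and 1 lower against Lgr5 barcodes, where 12.6% of all genes were higher and 15.7% lower. Against the 17 Neurog3 barcodes that did not meet the Tph1 rule, 32 members were higher and 0 lower in Tph1 barcodes, where 14.8% of all genes were higher and 11.6% lower (median member 0.53, all genes 0.06), which kept cells did not show. Over all left-out barcodes of each class, mt- genes took 19.7% of UMIs in Tph1 and 5.92% in Neurog3 barcodes. With no more mt- UMIs than the highest kept cell, the OXPHOS share outside mt- genes was 2.82% (Tph1) and 2.45% (Neurog3). It was 5.12% in Tph1 barcodes with 25 to 50% mt- UMIs. The part of the mt- share in this difference was not tested. Cox7a1 was at 219 CPM outside mt- genes in left-out enterocytes and 11.4 in left-out Lgr5 barcodes. Cox7a2l was at 1123 CPM in left-out Tph1 barcodes and 666 in left-out Lgr5 barcodes, and Atp5g2 at 713 CPM in left-out enterocytes and 867 in left-out Lgr5 barcodes.

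**Figure D5:**
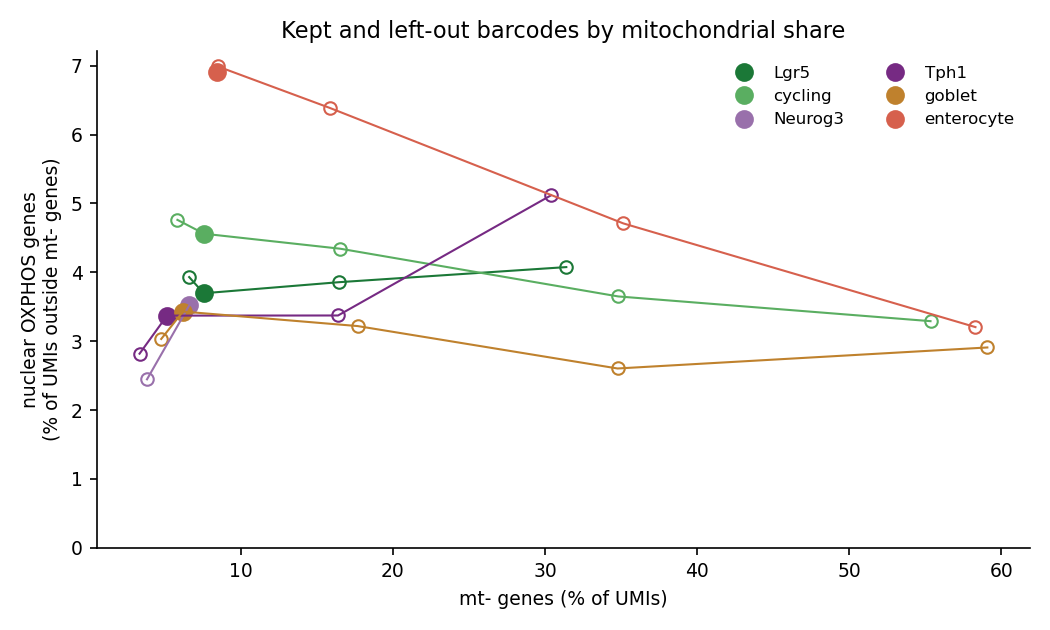
OXPHOS percentage of the UMIs outside mt- genes against the mt- percentage, for kept cells (large filled points) and left-out barcodes grouped by mt- percentage (open points), by class. Enterocytes go from 6.91% in kept cells to 3.21% in left-out barcodes above 50% mt- UMIs, and Lgr5 cells from 3.70% to 4.08% at 25 to 50%.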

How the data were processed

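Per the submitters' processing notes, the authors used Cell Ranger and Seurat, with no version given; the matrix header names software version 3.1.0. The notes name the build GRCh38 while the gene identifiers are mouse, so no coordinates were taken from the files. The deposited values are raw counts of UMIs for 31055 genes over 11248 barcodes and raw counts of 4 hashtags, as the authors deposited them. The authors' filtered table holds 2335 of these barcodes and 0 of its entries differed from the matrix; the sources used here do not give the rule of that filter. A normalised table was not used.

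UMIs were summed over the cells of each class (Python 3.11.15, numpy 2.4.6, scipy 1.17.1, pandas 2.3.3) and expressed as percent of UMIs or CPM. Intervals are exact Clopper-Pearson intervals for shares and exact Poisson intervals for sums, at 95%; log2 differences used a pseudocount of 10 CPM. The call was run on simulated Poisson sums with known changes. These hold no spread between cells or libraries, so the run checks the working of the call and not its error in these data. Doublet scores came from Scrublet in scanpy 1.11.5, whose own threshold marked 2 cells, so that the 6% of cells with top scores were left out as an alternative only. The members, gene lists and class rules were chosen with earlier results of these data known. Genes named are, by rule, the 3 members with most UMIs in each complex, the 4 highest and 4 lowest members of a comparison, the isoform families, and up to 4 genes with most UMIs of each other list; Uqcrfs1 and the promoter windows shown were chosen after their values were seen. Not every gene that the rule names is reported here. Alternatives changed the class rules, depth, barcodes, doublets, denominator, weighting, pseudocount, minimum level and fold. Promoter windows are from RefSeq, build GRCm38.p6, matched by symbol.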

Additional observations from a re-analysis of the deposited data

Results flagged for a closer look

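Barcodes that the authors left out also carried OXPHOS transcripts; they enter none of the class values of kept cells. The 235 left-out barcodes with at least 2 Alpi UMIs gave OXPHOS genes 4.61% of their UMIs (interval 4.58 to 4.63), above the 3.19% of 144 left-out Lgr5 barcodes and below the 6.32% of kept enterocytes. Their ratio of OXPHOS to mt- UMIs was 0.201, against 0.749 in kept enterocytes. The 33 of them with no more mt- UMIs than the highest kept cell gave 6.40% and a ratio of 0.753, and the 103 with 25 to 50% mt- UMIs gave 3.06%.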

How the results depend on the processing

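Values are log2 differences from Lgr5 cells, and the class compared stands in brackets; only values outside the counting interval of the reported value, or counts over 1.5 times apart, are given. The share of enterocytes and cycling cells lay above that of Lgr5 cells, and that of lymphocytes below, under every alternative that gave a value. Counts of members called stand beside the share of all genes only where that share was taken. The other counts give no comparison of members with all genes. With cells that met exactly 1 rule, the share differed by 0.51 (cycling), -0.26 (Neurog3), -0.13 (goblet), 1.05 (enterocyte), -0.82 (lymphocyte) and 0.15 (Tph1 against Neurog3), and the nuclear to mitochondrial ratio by 0.48 (cycling), -0.18 (Neurog3), 0.74 (Tph1), 0.18 (goblet), 0.85 (enterocyte), 0.0314 (lymphocyte) and 0.91 (Tph1 against Neurog3). There members called higher were 5 (Tph1), 1 (goblet) and 9 (Tph1 against Neurog3), and members called lower were 8 (Neurog3), 4 (goblet) and 4 (Tph1 against Neurog3). Of all genes 11.4% (Neurog3) and 14.6% (goblet) were lower. With doubled class thresholds, the share differed by 0.45 (cycling), 0.00757 (Neurog3), -0.0819 (Tph1), -0.14 (goblet), 0.96 (enterocyte), -0.85 (lymphocyte) and -0.14 (Tph1 against Neurog3), and the nuclear to mitochondrial ratio by 0.49 (cycling), 0.59 (Tph1), 0.28 (goblet), 0.83 (enterocyte) and 0.0535 (lymphocyte). There members called higher were 1 (goblet), and members called lower were 0 (Neurog3) and 3 (goblet). With cells of at least 10000 UMIs, the share differed by -0.0588 (Tph1), -0.074 (goblet) and -0.0842 (Tph1 against Neurog3), and the nuclear to mitochondrial ratio by 0.53 (Tph1), 0.22 (goblet) and 0.38 (Tph1 against Neurog3). There members called lower were 1 (Tph1). Over all barcodes of at least 1000 UMIs, the share differed by 0.38 (cycling), -0.15 (Neurog3), -0.15 (goblet), 0.75 (enterocyte) and -0.0475 (Tph1 against Neurog3), and the nuclear to mitochondrial ratio by 0.13 (cycling), 0.45 (Neurog3), -0.13 (Tph1), -0.0811 (goblet), 0.0543 (enterocyte), 0.19 (lymphocyte) and -0.41 (Tph1 against Neurog3). There members called lower were 2 (Tph1), 1 (goblet) and 0 (Tph1 against Neurog3). After dropping the 6% top doublet scores, the share differed by 0.50 (cycling), -0.30 (Tph1), -0.10 (goblet), 0.94 (enterocyte) and -0.29 (Tph1 against Neurog3), and the nuclear to mitochondrial ratio by 0.47 (cycling), 0.61 (Tph1), 0.77 (enterocyte) and 0.54 (Tph1 against Neurog3). There members called higher were 1 (goblet), and members called lower were 25 (Tph1), 1 (goblet) and 21 (Tph1 against Neurog3). Of all genes 26.4% were lower (Tph1). With subunits only, the share differed by 0.91 (enterocyte). There members called lower were 0 (Neurog3). Over UMIs outside mt- genes, the share differed by -0.0891 (Neurog3), -0.15 (Tph1), -0.11 (goblet), 0.92 (enterocyte), -0.70 (lymphocyte) and -0.15 (Tph1 against Neurog3). There members called lower were 1 (goblet). Over UMIs outside mt-, Rpl and Rps genes, the share differed by 0.41 (cycling), -0.24 (Neurog3), -0.42 (Tph1), -0.24 (goblet), 0.74 (enterocyte), -0.80 (lymphocyte) and -0.34 (Tph1 against Neurog3). There members called lower were 3 (Neurog3), 25 (Tph1), 6 (goblet) and 9 (Tph1 against Neurog3). Of all genes 25.7% were lower (Tph1). With the median cell, the share differed by 0.41 (cycling), -0.36 (Neurog3), -0.32 (Tph1), -0.27 (goblet), 0.94 (enterocyte), -0.999 (lymphocyte) and -0.0448 (Tph1 against Neurog3), and the nuclear to mitochondrial ratio by 0.50 (cycling), 0.59 (Neurog3), 0.87 (Tph1), 0.27 (goblet), 0.84 (enterocyte), -0.13 (lymphocyte) and 0.77 (Tph1 against Neurog3). With a pseudocount of 1 CPM, members called higher were 1 (goblet), and members called lower were 1 (goblet). With a minimum of 20 CPM, members called higher were 2 (Neurog3), 5 (Tph1) and 1 (goblet). With no minimum level, members called higher were 2 (Neurog3), 5 (Tph1), 1 (goblet) and 1 (lymphocyte), and members called lower were 2 (Neurog3), 1 (goblet) and 1 (enterocyte). At 2-fold, members called higher were 0 (cycling), 0 (Tph1), 28 (enterocyte) and 0 (Tph1 against Neurog3), and members called lower were 0 (Neurog3), 0 (Tph1), 9 (lymphocyte) and 0 (Tph1 against Neurog3). Of all genes 4.29% (cycling) and 9.8% (enterocyte) were higher, and 18.9% (lymphocyte) lower. Without cells of 1% or more Paneth marker UMIs (added after the data were seen), the share differed by 0.40 (cycling), -0.12 (Neurog3), -0.16 (Tph1), -0.0675 (goblet), 0.85 (enterocyte) and -0.70 (lymphocyte), and the nuclear to mitochondrial ratio by 0.17 (goblet). There members called lower were 1 (goblet). Between tag pairs the share differed by 0.19 (Lgr5, tags 10 times), 0.0447 (Lgr5, the pair with more counts), 0.00622 (cycling, the pair with more counts), 0.0651 (cycling, median over cells) and 0.0162 (enterocyte, median over cells). With the pair of more counts it differed by -0.25 in Tph1 and -0.17 in goblet cells, for which no other tag rule gave a value. No value for lymphocytes could be had at 10000 UMIs or more, where fewer than 10 cells remain. No paired analysis was possible because the series has 1 gene expression library. The cause of these shifts was not tested. Counting error is small for summed classes and limits single genes in lymphocytes and Neurog3 cells most; spread between mice, cultures or libraries is unknown.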

Other observations

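In Tph1 cells the complex III assembly factor Uqcc2, outside the symbol rule, was at 254 CPM against 84.5 in Lgr5 cells (log2 difference 1.48), and Usmg5, a small ATP synthase subunit outside the rule, at 331 and 214 CPM (0.60). The chaperonin genes Hspe1 and Hspd1, which fold imported proteins in mitochondria, were at 511 and 898 CPM (-0.80) and at 509 and 851 CPM (-0.73). The phosphate carrier Slc25a3 was at 573 and 903 CPM (-0.65).

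Across cells of one class, Spearman's rho between the OXPHOS share and the share of ribosomal protein UMIs was 0.58 in 347 Tph1 cells, 0.53 in 129 goblet cells and -0.10 in 134 enterocytes. These are descriptions over cells of 1 library that share depth and denominator, and depth itself had a rho of 0.52, 0.44 and -0.38 with the OXPHOS share in the same 3 classes.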
